A study of Mus musculus with 8 samples.

Results

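Afp, Alb, Ttr, Rbp4, Trf, Apoa1, Apoa2, Apob, Fgb and Hnf4a are 10 genes of the developing liver and of the visceral endoderm of the yolk sac, measured here in RNA of the mouse embryonic heart. Of these genes, 9 encode proteins that are secreted into blood or yolk sac fluid, and Hnf4a encodes a transcription factor of the cells that make them. They are 10 of the 49315 genes in the deposited count tables and were found by the gene symbol of each Ensembl identifier. They were chosen by their levels in the single libraries, with Female replicate 1 and Male replicate 2 seen as high for liver bud genes. Their levels by library are therefore given as a description, with no test. Female replicate 1, Male replicate 2 and Male replicate 4 had the highest sums of the 10 genes and held all 10 transcripts. Male replicate 3 also held all 10, at a low sum. The choice drew on the levels in all 8 libraries, so nothing is concluded from which of them were high. None of the 10 was called as different between male and female hearts.

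Before the liver is formed, the visceral endoderm, an epithelium that covers the yolk sac, makes the plasma proteins of the embryo. The liver bud then grows out of the ventral foregut endoderm, next to the heart tube, and its hepatoblasts take over the same genes. Afp (alpha-fetoprotein), a fetal carrier protein, and Ttr (transthyretin), which carries thyroid hormone and binds the retinol carrier Rbp4, are early markers of both tissues. Alb (albumin) marks the hepatoblast. Apob is the structural protein of the lipoproteins that both tissues secrete, Apoa1 and Apoa2 are proteins of high-density lipoprotein, Trf (transferrin) carries iron and Fgb is the beta chain of fibrinogen. Hnf4a is a nuclear receptor that many of these genes need in the hepatocyte and the visceral endoderm.

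The libraries came from hearts of C57BL/6 embryos at embryonic day 9.5, with 4 from males and 4 from females. No treatment, transgene or mutation is given for any of them. Sex had been assigned by genotyping Sry, a gene of chromosome Y, in tissue of the same embryos outside the heart. Whether 1 heart or several went into a library is not labelled, nor is the line of dissection from the tissue around it. The p-values therefore cover only the spread from library to library, which may be technical.

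Total counts ranged from 21778953 to 39773169 in male libraries and from 20105913 to 51134291 in female libraries. A single count was worth 0.0251 to 0.0459 CPM, the count scaled to a library total of 1000000, in male libraries and 0.0196 to 0.0497 CPM in female libraries. A gene with 0 counts could have reached 0.0754 to 0.138 CPM in males and 0.0587 to 0.149 CPM in females, taking 3 counts as the floor, which covers counting error only. The labelled sex was borne out in all 8 libraries. Xist, the RNA that silences 1 X chromosome in females, had 0.356 to 0.528 CPM in males and 240 to 279 CPM in females, and the Y-linked genes Ddx3y, Eif2s3y, Kdm5d and Uty summed to 125 to 140 CPM in males and 0.159 to 0.484 CPM in females. The 17 cardiomyocyte genes examined were all above 1 CPM in every library and summed to 51419 to 67488 CPM in males and 48356 to 56465 CPM in females. Male replicate 2 stood apart from the other males over all genes: the mean chi-square per gene was 124 to 192 in its pairs with other males and 7.93 to 18.9 in the pairs without it. Female replicate 4 stood apart from the other females, at 55.4 to 87.1 in its pairs against 22 to 24.1 in the pairs without it, and was the highest library for 30.9% of genes tested. Male replicate 2 also had the lowest mitochondrial share of counts, 0.707%, against 1.30% to 1.58% in the other males and 0.999% to 1.72% in females.

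The 10 genes together had 6.04, 37.7, 8.54 and 24.1 CPM in Male replicates 1 to 4, and 90.9, 6.10, 8.95 and 4.89 CPM in Female replicates 1 to 4. These sums came from 170, 1501, 186 and 713 counts in the male libraries and from 3377, 306, 180 and 250 counts in the female libraries. Male replicate 2, Male replicate 4 and Female replicate 1 were thus the 3 high libraries, and the other 5 lay below 9 CPM. In bulk tissue, more cells that make these transcripts and more RNA per cell cannot be told apart.

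**Figure D1:**
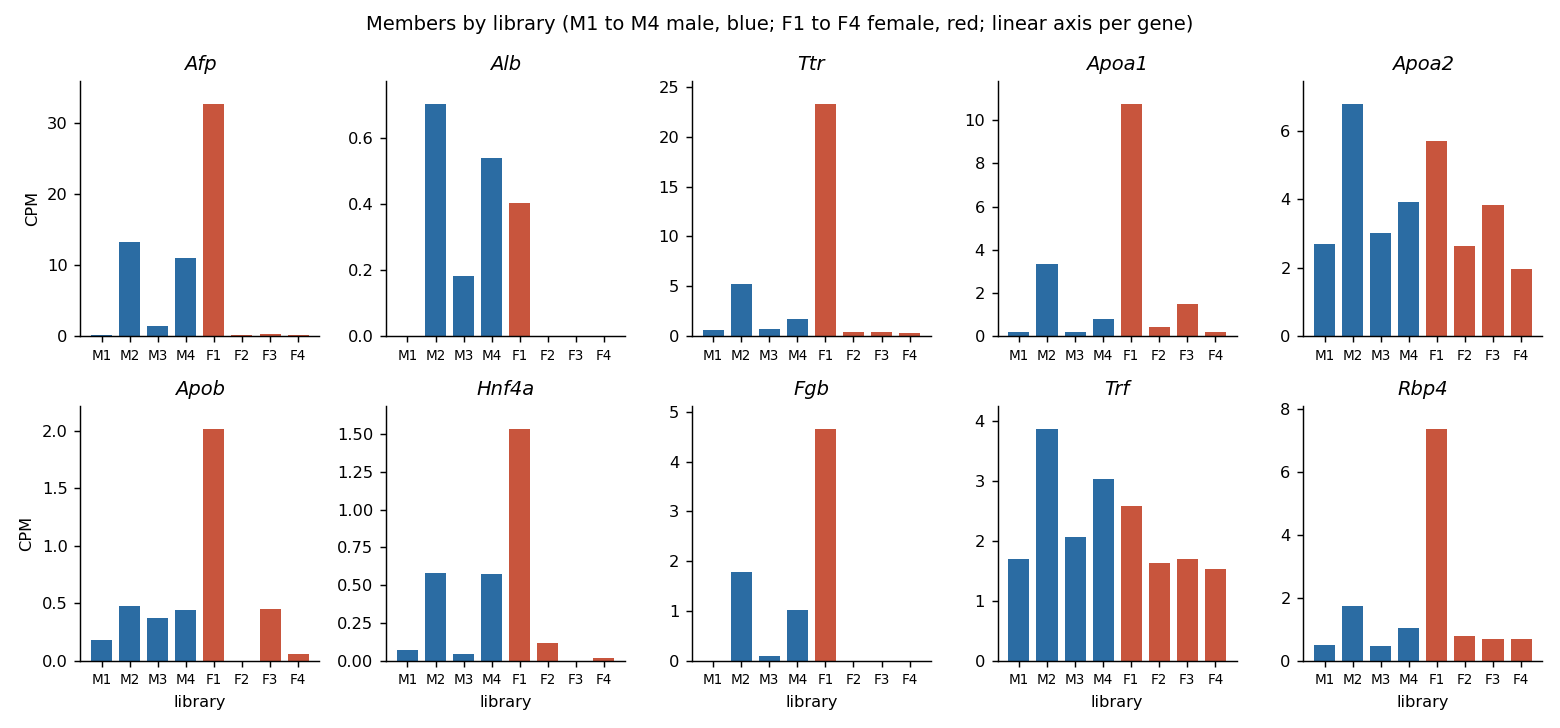
CPM of each of the 10 genes (linear vertical axis from 0, one scale per gene) in Male replicates 1 to 4 (blue) and Female replicates 1 to 4 (red), 1 bar per library. Male replicate 2 is the highest library in the panels of Alb, Apoa2 and Trf and Female replicate 1 in the other 7, while Apoa2 and Trf are well above 0 in every library.

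Male replicate 2 was the highest of the 8 libraries for 3 genes, Alb, Apoa2 and Trf, and Female replicate 1 for the other 7. Over all 16377 genes tested, 19.3% were highest in Male replicate 2 and 11.9% in Female replicate 1. These ranks were part of the choice of the genes, and nothing is read from the comparison with the background. Male replicate 2 was among the 2 highest libraries for all 10 genes, and it exceeded Male replicate 4 for all 10. Male replicate 4 in turn exceeded Male replicates 1 and 3 and Female replicates 2 and 4 for all 10 genes, and Female replicate 3 for 8 of 10. Apoa1 and Apob were the 2 genes in which Female replicate 3 came before Male replicate 4. On log2(CPM + 0.1), the median gene stood 2.36 above the median of the other libraries in Male replicate 2 and 3.24 above it in Female replicate 1.

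The stretches before the transcription start are shown for the 4 genes whose promoters hold the letters of 1 liver motif, and for Apoa2, which was present in all libraries and lacks them. Apob, with 2.02 CPM in Female replicate 1 and at most 0.478 CPM in the other libraries, lacks them too. So do Apoa1 and Rbp4, whose highest and lowest libraries were 60.4-fold and 16.1-fold apart. RefSeq promoters on GRCm38.p6 were searched for 8 of the 10 genes, with 11 starts, each over 250 bases before to 50 bases after the start. Ttr and Trf were not searched. The HNF1 half-site GTTAAT, searched on both strands (its reverse complement is ATTAAC), was present at Afp, Alb, Fgb and the second of the starts of Hnf4a, and in 7.10% of 32851 promoters of the same length. The FOXA site TGTTTAC, searched on both strands (GTAAACA), was present at Apoa2 and at 1 start of Rbp4, and in 3.65% of promoters. The letters TATAAA, searched on the strand of the gene only, were found at Afp, Apoa2, Apob and Rbp4, and in 8.32% of promoters. The HNF4 site CAAAGTCCA, searched on both strands (TGGACTTTG), was in none of the 8 genes and in 0.475% of promoters. The motifs do not overlap one another. Such a match describes the letters and is not a binding site, and nothing about the levels by library is read from it. Each line below gives the 150 bases before the start on the strand of the gene, 5′ to 3′, with the matches in capitals: GTTAAT or ATTAAC at Alb, Afp, Fgb and Hnf4a, TATAAA also at Afp, and TGTTTAC at Apoa2.
Alb, chr5:90460720-90460869, + strand: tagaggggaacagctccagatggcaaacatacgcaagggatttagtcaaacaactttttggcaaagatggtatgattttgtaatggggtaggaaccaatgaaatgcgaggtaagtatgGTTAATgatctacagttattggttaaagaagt
Afp, chr5:90490564-90490713, + strand: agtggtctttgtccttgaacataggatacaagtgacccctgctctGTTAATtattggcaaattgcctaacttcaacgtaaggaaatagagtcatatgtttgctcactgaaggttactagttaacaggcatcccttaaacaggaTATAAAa
Fgb, chr3:83049864-83050013, − strand: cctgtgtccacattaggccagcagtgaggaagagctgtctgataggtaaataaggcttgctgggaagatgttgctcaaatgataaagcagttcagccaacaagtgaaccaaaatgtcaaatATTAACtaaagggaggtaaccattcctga
Hnf4a, chr2:163547005-163547154, + strand: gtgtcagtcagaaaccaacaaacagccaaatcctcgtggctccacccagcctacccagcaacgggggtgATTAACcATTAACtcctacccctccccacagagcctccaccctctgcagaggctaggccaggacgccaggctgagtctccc
Apoa2, chr1:171224904-171225053, + strand: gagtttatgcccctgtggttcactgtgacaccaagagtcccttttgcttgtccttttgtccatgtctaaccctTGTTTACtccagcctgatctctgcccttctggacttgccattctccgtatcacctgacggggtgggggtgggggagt

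The match began 32 bases before the start at Alb (position -32), at -105 at Afp, at -29 at Fgb, and at -81 and -74 at Hnf4a, counted from the RefSeq start. RefSeq starts of Alb and Afp lie 27 and 23 bases from the start of the gene in the count tables, and the start shown for Hnf4a lies 40347 bases inside the gene. The data do not say which of its starts was used.

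Afp (ENSMUSG00000054932, chromosome 5, 90490737 to 90508907, + strand, GRCm38) varied most. It had 0.142, 13.2, 1.42 and 11 CPM in Male replicates 1 to 4, against 32.6, 0.120, 0.348 and 0.0782 CPM in Female replicates 1 to 4. The highest library was 417-fold above the lowest, which held 4 counts. Levels in the 3 high libraries were at least 10 CPM, Male replicate 3 came next at 31 counts, and the other 4 had 4 to 7 counts each. The sexes overlapped up to the highest male level, above which lay Female replicate 1.

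Alb (ENSMUSG00000029368, chromosome 5, 90460897 to 90476602, + strand) is the neighbour of Afp in the albumin gene family and was near the limit of detection. It had 0, 0.704, 0.184 and 0.541 CPM in Male replicates 1 to 4, against 0.404, 0, 0 and 0 CPM in Female replicates 1 to 4. All counts came from 4 libraries, with 28, 4 and 16 in Male replicates 2, 3 and 4 and 15 in Female replicate 1. Here Female replicate 1 came after Male replicates 2 and 4. The albumin share of the summed Alb and Afp counts was 5.06% in Male replicate 2 (95% Wilson interval 3.53% to 7.22%) and 4.68% in Male replicate 4 (2.90% to 7.46%), against 1.22% in Female replicate 1 (0.743% to 2.01%). Both male intervals lay above that of Female replicate 1. Intervals of shares here cover counting error only.

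Ttr (ENSMUSG00000061808, chromosome 18, 20665250 to 20674324, + strand) had 0.569, 5.25, 0.689 and 1.69 CPM in Male replicates 1 to 4, against 23.3, 0.379, 0.448 and 0.332 CPM in Female replicates 1 to 4. It was 70.0-fold higher in the highest than in the lowest library. Unlike Afp, it was clearly lower in Male replicate 4 than in Male replicate 2. Of the 1219 exon bases of Ttr, 11 are shared with Gm16090 on the opposite strand, which had 14 counts in all.

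Rbp4 (ENSMUSG00000024990, chromosome 19, 38116620 to 38125321, − strand), whose protein travels bound to that of Ttr, had 0.498, 1.73, 0.459 and 1.05 CPM in Male replicates 1 to 4, against 7.37, 0.797, 0.696 and 0.704 CPM in Female replicates 1 to 4. It was thus detected everywhere, and the highest library was 16.1-fold above the lowest. The Rbp4 share of Rbp4 and Ttr counts was 24.8% (20.1% to 30.2%) in Male replicate 2 and 38.3% (28.4% to 49.2%) in Male replicate 4, against 24.1% (21.7% to 26.6%) in Female replicate 1. In the 5 libraries with less Ttr it was 46.7% (30.2% to 63.9%) and 40.0% (23.4% to 59.3%) in Male replicates 1 and 3, and 67.8% (55.1% to 78.3%), 60.9% (40.8% to 77.8%) and 67.9% (54.5% to 78.9%) in Female replicates 2, 3 and 4. The 2 male intervals contained the share of Male replicate 4.

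Trf (ENSMUSG00000032554, chromosome 9, 103204001 to 103230444, − strand) was the most even of the carrier proteins. It had 1.71, 3.87, 2.07 and 3.04 CPM in Male replicates 1 to 4, against 2.58, 1.63, 1.69 and 1.53 CPM in Female replicates 1 to 4. The highest and lowest libraries were 2.54-fold apart, and the 2 highest were both male. Of its 3320 exon bases, 2108 are also annotated to Gm20425 on the same strand, which had 0 counts. The sources used here do not give the rule for shared reads, so the level of Trf is uncertain.

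Apoa1 (ENSMUSG00000032083, chromosome 9, 46228580 to 46230466, + strand) had 0.178, 3.34, 0.184 and 0.811 CPM in Male replicates 1 to 4, against 10.7, 0.418, 1.49 and 0.196 CPM in Female replicates 1 to 4. Female replicate 3 was ahead of Male replicate 4, which sets Apoa1 apart from Afp in those 2 libraries. Apoa2 (ENSMUSG00000005681, chromosome 1, 171225054 to 171226379, + strand) had 2.70, 6.79, 3.03 and 3.92 CPM in Male replicates 1 to 4, against 5.71, 2.63, 3.83 and 1.98 CPM in Female replicates 1 to 4. The libraries differed by 3.44-fold for Apoa2 and 60.4-fold for Apoa1. Apob (ENSMUSG00000020609, chromosome 12, 7977648 to 8016835, + strand) had 0.178, 0.478, 0.367 and 0.439 CPM in Male replicates 1 to 4, against 2.02, 0, 0.448 and 0.0587 CPM in Female replicates 1 to 4. Its male libraries lay close together, and Female replicate 1 alone exceeded 0.5 CPM.

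Fgb (ENSMUSG00000033831, chromosome 3, 83040141 to 83049863, − strand) had 0, 1.79, 0.0918 and 1.01 CPM in Male replicates 1 to 4, against 4.66, 0, 0 and 0 CPM in Female replicates 1 to 4. No count was found in the same 4 libraries that held none for Alb. Hnf4a (ENSMUSG00000017950, chromosome 2, 163506808 to 163572910, + strand) had 0.0711, 0.578, 0.0459 and 0.575 CPM in Male replicates 1 to 4, against 1.53, 0.120, 0 and 0.0196 CPM in Female replicates 1 to 4. Its 3 highest libraries were those of Afp and Fgb. The Hnf4a share of Hnf4a and Afp counts was 4.2% (2.81% to 6.22%) in Male replicate 2 and 4.96% (3.12% to 7.79%) in Male replicate 4, against 4.50% (3.49% to 5.78%) in Female replicate 1, and the 3 intervals overlapped.

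**Figure D2:**
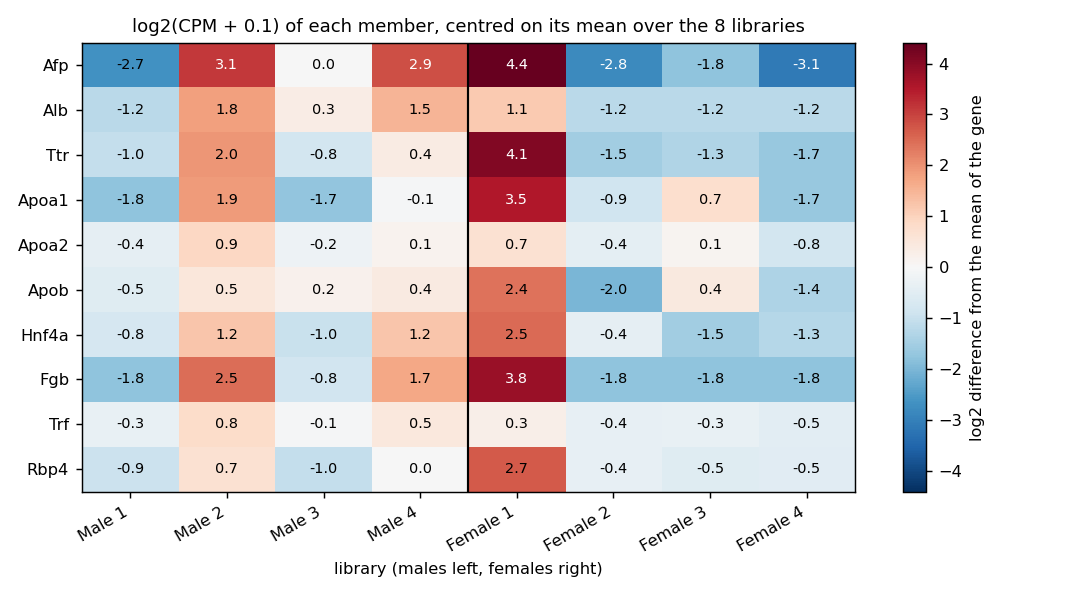
log2(CPM + 0.1) of the 10 genes (rows) in the 4 male libraries (left) and 4 female libraries (right), centred on the mean of each gene over the 8 libraries, so that red is above and blue below that mean. Male replicate 2, Male replicate 4 and Female replicate 1 are red or near the mean for every gene, with the widest range for Afp and the narrowest for Trf.

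Averaged over the 10 genes on this centred log2 scale, the profile was -1.14, 1.53, -0.52 and 0.86 in Male replicates 1 to 4, and 2.54, -1.18, -0.72 and -1.39 in Female replicates 1 to 4. Distances were taken to the mean profile after library totals were scaled by the TMM factors of edgeR. Hnf4a followed that profile most closely, with a root mean square distance of 0.488 over the 8 libraries. Afp, with the widest range, was farthest at 1.55, and Trf, with the narrowest, came next at 1.02.

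Some shares of counts between pairs of these genes differed among the 3 high libraries by intervals that cover counting error only. Over all genes, Male replicates 2 and 4 also differed beyond counting error, at a mean chi-square per gene of 124. Shares of other gene pairs were not compared, so nothing particular to these genes is concluded. Afp made up 71.5% (68.2% to 74.7%) of Afp and Ttr counts in Male replicate 2 and 86.7% (82.9% to 89.8%) in Male replicate 4, against 58.3% (56.2% to 60.4%) in Female replicate 1, and none of the 3 intervals overlapped. Its share of Afp and Apoa1 counts was 79.8% (76.5% to 82.7%) in Male replicate 2 and 93.1% (90.0% to 95.3%) in Male replicate 4, against 75.2% (73.1% to 77.3%) in Female replicate 1. Male replicate 4 was thus rich in Afp relative to both partners. The Ttr share of Ttr and Apoa1 counts, by contrast, was 61.1% (55.8% to 66.1%) in Male replicate 2 and 67.6% (56.3% to 77.1%) in Male replicate 4, against 68.4% (65.8% to 70.9%) in Female replicate 1, and these intervals overlapped. The fibrinogen share of Fgb and Afp counts was 11.9% (9.55% to 14.8%) in Male replicate 2 and 8.43% (5.97% to 11.8%) in Male replicate 4, against 12.5% (10.9% to 14.3%) in Female replicate 1, again with overlap. In the low libraries the Afp share of Afp and Ttr counts was 20% (8.07% to 41.6%) and 67.4% (53.0% to 79.1%) in Male replicates 1 and 3, and 24.0% (11.5% to 43.4%), 43.8% (23.1% to 66.8%) and 19.0% (7.67% to 40.0%) in Female replicates 2, 3 and 4. These shares rest on 16 to 46 counts each.

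**Figure D3:**
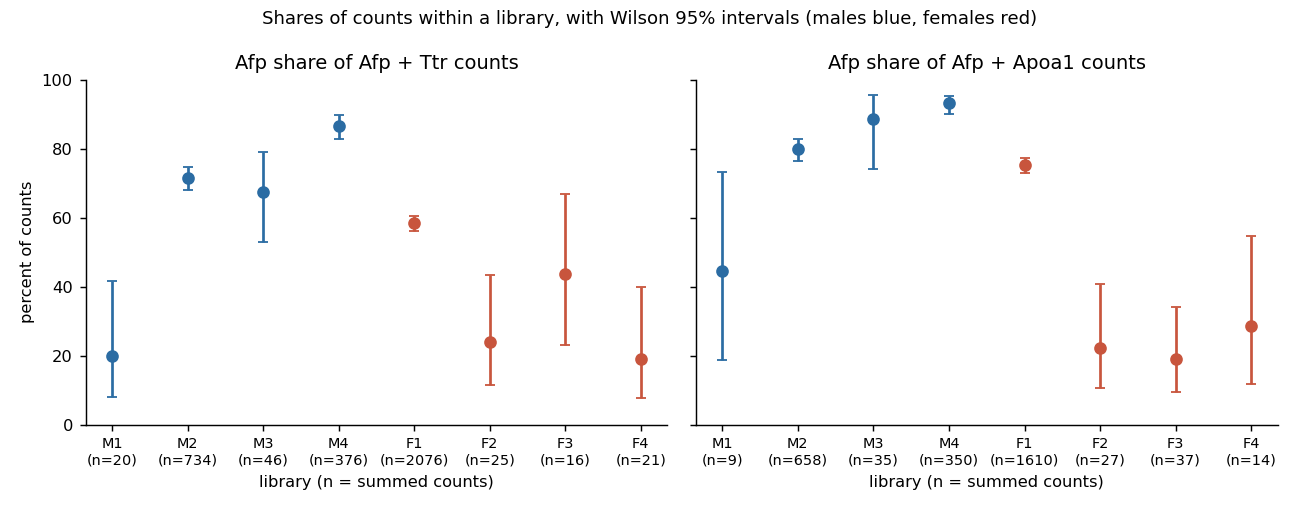
Share of Afp in the summed counts of Afp and Ttr (left) and of Afp and Apoa1 (right), in percent, for each male (blue) and female (red) library, with 95% Wilson intervals and the summed counts below each library. Male replicate 4 has the highest share in both panels (86.7% and 93.1%), above the intervals of Male replicate 2 and Female replicate 1.

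Levels were compared between genes per length, as TPM, in which counts are divided by exon length before scaling. Apoa2 led, with a median of 14.8 TPM over the 8 libraries and a range of 9.49 to 25.2 TPM. Rbp4, Trf, Ttr and Apoa1 followed, with medians of 1.44, 1.41, 1.28 and 1.18 TPM. Their ranges overlapped, so that the order among these 4 is not beyond their spread over libraries. Afp had a median of 0.637 TPM, with a range of 0.0599 to 22.9 TPM. Alb, Apob, Hnf4a and Fgb had medians of 0.0972, 0.0641, 0.0483 and 0.0299 TPM. The order differed between libraries. Apoa2 made up 46.8% and 48.7% of the summed TPM of the 10 genes in Male replicates 2 and 4 and 18.8% in Female replicate 1, against 71.5% and 76.1% in the other males and 71.5% to 73.0% in the other females. In Female replicate 1 the leading gene was Ttr, with 33.9% of the summed TPM of the 10 genes. Its level of 45.2 TPM ranked 2807 among all genes of that library.

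The one contrast that the labels give is sex. In a fit over all 16377 genes that passed a filter on low counts, 6 genes (0.0366%) differed between male and female hearts at an adjusted p below 0.05 (edgeR quasi-likelihood test, Benjamini-Hochberg), 5 higher in males and 1 higher in females. None of the 6 is autosomal, while 367 genes had an unadjusted p below 0.05. Of the 10 genes, 7 passed the filter, and Alb, Hnf4a and Fgb did not. No gene of the 10 was called, by edgeR, DESeq2 or limma-voom, and none had an unadjusted p below 0.05 in edgeR. DESeq2 gave no adjusted p for Ttr and Rbp4. The ranges of CPM of the sexes overlapped for all 10, while they were apart for 1.91% of all genes tested.

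Afp averaged 6.45 ± 6.62 CPM in males and 8.28 ± 16.2 CPM in females (SD, n = 4 each). Its log2 fold change, male minus female, was -0.24 ± 1.63, with an adjusted p of 0.9995 in edgeR. The error of each fold change is an SE derived from the F statistic of the test. The adjusted p of the 6 other tested genes was the same. Ttr averaged 2.05 ± 2.19 CPM in males and 6.11 ± 11.4 CPM in females, a log2 fold change of -1.41 ± 1.39. Apoa1 averaged 1.13 ± 1.51 CPM in males and 3.21 ± 5.05 CPM in females, a log2 fold change of -1.30 ± 1.27. In each of these genes the female SD exceeded the female mean. Rbp4 had a log2 fold change of -1.24 ± 0.88 and Apob of -0.68 ± 1.13. The smallest errors were those of the even genes, with a log2 fold change of 0.60 ± 0.33 for Trf and of 0.31 ± 0.43 for Apoa2. In the fit with no filter, Alb had 1.92 ± 1.39, Hnf4a -0.29 ± 1.36 and Fgb -0.53 ± 1.97.

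The values depended on which libraries were included. Without Female replicate 1, the log2 fold change, male minus female, was 5.55 for Afp, 2.61 for Ttr, 1.03 for Apoa1, 1.67 for Apob and 0.48 for Rbp4, the opposite sign of the value from all 8 libraries. Afp, Ttr and Apob also had a positive value in limma-voom with all libraries (2.37, 0.58 and 1.54). Afp was at 0.17 without Male replicate 1 and at 0.09 without Male replicate 3, and Apoa2 at -0.15 without Male replicate 2. The median over the 10 genes was -0.41 with all libraries and 2.12 without Female replicate 1, beside a median of 0.01 over all genes tested. It was 1.44 without both Female replicate 1 and Male replicate 2, and 0.43 when Male replicate 4 was left out as well, a choice made after the values were seen. No gene of the 10 was called in any of the 17 other fits, where the lowest adjusted p was 0.835. Filters left some of the 10 untested in many of these fits. With at least 1 CPM in 4 libraries, only Afp, Apoa2 and Trf were tested, while the fit with no filter tested all 10.

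**Figure D4:**
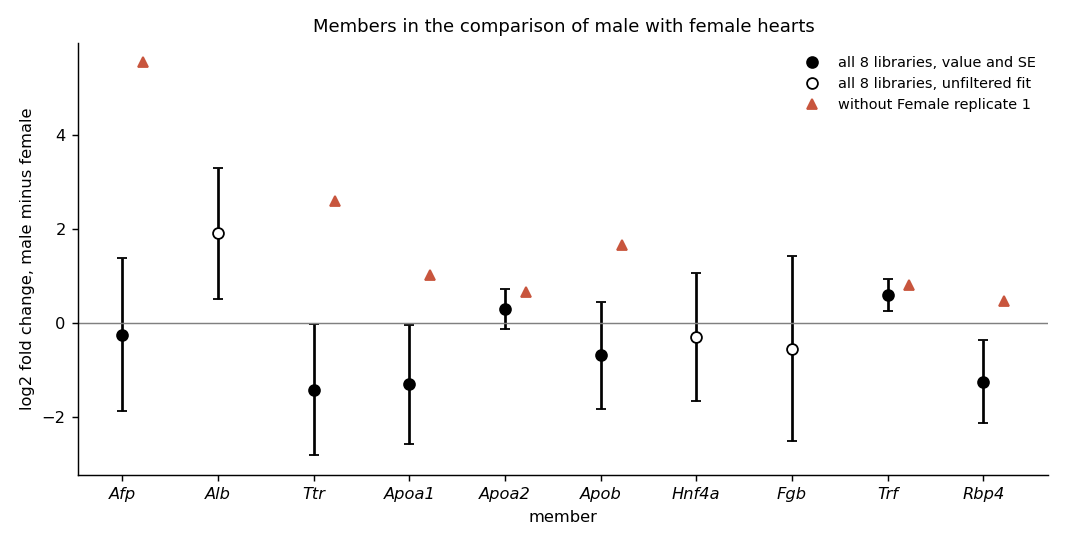
log2 fold change, male minus female, of each of the 10 genes: value and standard error, derived from the F statistic of the test, from all 8 libraries (filled circles, or open circles for the genes under the filter, from the unfiltered fit) and the value without Female replicate 1 (red triangles, genes that passed the filter). Triangles lie above 0 for all 7 genes, while 5 of the 7 filled circles lie below 0.

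Other genes of the same functions were examined in lists chosen with earlier results of these data known, and no gene of any list was called between the sexes in edgeR. Of 40 further plasma protein genes, 11 were tested, 7 with a positive and 4 with a negative log2 fold change (male minus female) and a median of 0.06. Their summed level was 281 to 514 CPM in males and 255 to 407 CPM in females, most of it from Apoe, an apolipoprotein made by many cell types, with 268 to 480 CPM in males and 244 to 379 CPM in females. F10, a clotting factor, had 5.05 to 8.37 CPM in males and 3.99 to 8.06 CPM in females. Ttpa, which binds vitamin E, had 2.03 to 2.54 CPM in males and 1.89 to 2.61 CPM in females. All 3 genes were present in every library. Apom, an apolipoprotein of high-density lipoprotein, had 1.07, 2.19, 0.689 and 1.39 CPM in Male replicates 1 to 4, and 5.19, 1.16, 1.49 and 0.821 CPM in Female replicates 1 to 4. Male replicates 2 and 4 were each the highest library for 5 of the 40 genes, and Female replicate 1 for 19. F9 had no count in any library.

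Among the plasma protein genes named after their values were seen, several had the profile of Fgb. Serpinf2, the plasmin inhibitor, had 0.0711, 4.22, 0.230 and 2.54 CPM in Male replicates 1 to 4, and 7.43, 0.0797, 0.199 and 0.0587 CPM in Female replicates 1 to 4. Ambp, the precursor of alpha-1-microglobulin and bikunin, had 0, 3.37, 0.413 and 1.69 CPM in the males and 5.06, 0, 0.0497 and 0 CPM in the females. Vtn (vitronectin) had 0.0356, 3.19, 0.0459 and 1.25 CPM in the males and 7.51, 0.0199, 0.249 and 0.0978 CPM in the females. All 3 were highest in Female replicate 1, then in Male replicate 2 and Male replicate 4. The other fibrinogen chains, Fga and Fgg, were at 0 counts in Male replicate 1 and in Female replicates 2, 3 and 4, as Fgb was. Fgg had 0.377, 0.0459 and 0.237 CPM in Male replicates 2, 3 and 4, and 0.834 CPM in Female replicate 1. Fga had 0.101, 0 and 0.0676 CPM in the same males, and 0.350 CPM in Female replicate 1. Itih2, a heavy chain of the inter-alpha-trypsin inhibitor, departed slightly, with 0.0711, 1.61, 0.735 and 2.40 CPM in the males and 4.47, 0.0398, 0.0995 and 0 CPM in the females, so that Male replicate 4 came before Male replicate 2. Serpina1b had 0, 0.930, 0.0918 and 0.845 CPM in the males and 3.04, 0, 0.0497 and 0 CPM in the females, but reads may be split among its near-identical copies.

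Lists of the partners of these proteins in lipid, iron and retinol transport spanned a smaller range of mean centred log2 level over the libraries than the 10 genes. The choice of the 10 genes by their levels by library favours such a contrast, and nothing is read from it. Of 16 genes of lipoprotein assembly and lipoprotein receptors, 15 were tested, 6 with a positive and 9 with a negative log2 fold change (median -0.06), and their summed level was 412 to 450 CPM in males and 408 to 420 CPM in females. Their mean centred log2 level stayed between -0.09 and 0.03 in males and between -0.02 and 0.17 in females. Lpl, the lipase that releases fatty acids from lipoproteins, had 78.9 to 168 CPM in males and 77.9 to 88.2 CPM in females. The receptor Lrp1 had 60.8 to 103 CPM in males and 63.6 to 79.7 CPM in females, and the receptor Scarb1 had 53.1 to 80.7 CPM in males and 66.1 to 85.4 CPM in females. Lpl was highest in Male replicate 2, where these 2 receptors were each at their lowest among the males.

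Of 14 genes for uptake of the carried iron, retinol and protein, 13 were tested, 3 with a positive and 10 with a negative log2 fold change (median -0.07), with a summed level of 238 to 301 CPM in males and 270 to 301 CPM in females. Tfrc, the transferrin receptor, had 115 to 187 CPM in males and 149 to 178 CPM in females. Slc11a2, which moves iron out of endosomes, had 22.3 to 32.6 CPM in males and 26.1 to 32.6 CPM in females, and the endocytic adaptor Dab2 had 40.8 to 51.1 CPM in males and 45.9 to 53.4 CPM in females. The mean centred log2 level of the list was 0.07, -0.06, -0.06 and -0.27 in Male replicates 1 to 4, and 0.33, -0.22, 0.10 and 0.12 in Female replicates 1 to 4.

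**Figure D5:**
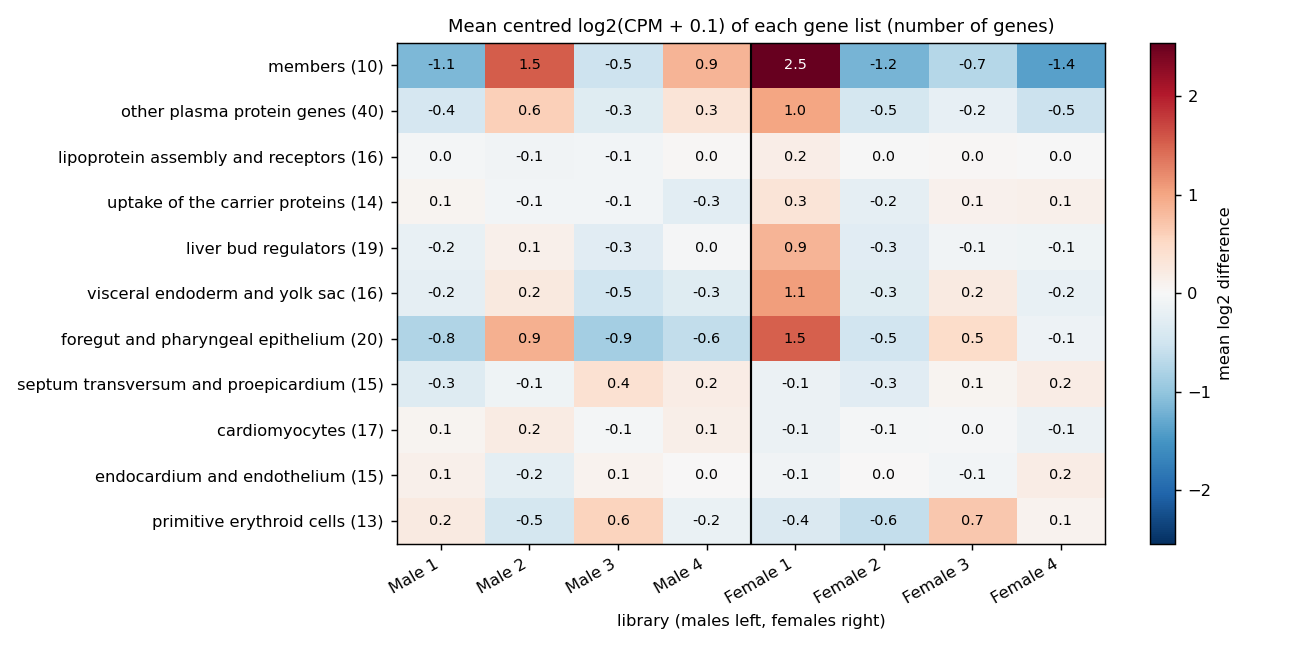
Mean over the genes of each list (number of genes in brackets) of log2(CPM + 0.1), centred per gene on its mean over the 8 libraries, in the 4 male (left) and 4 female (right) libraries. The 10 genes and the other plasma protein genes are both above 0 in Male replicates 2 and 4 and Female replicate 1, while the foregut list is above 0 in Male replicate 2 and Female replicates 1 and 3 and below 0 in Male replicate 4.

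Markers of the tissues that make these proteins were high in part of the same libraries, the liver bud list mainly in Female replicate 1. Of 19 liver bud regulators, 15 were tested, 4 with a positive and 11 with a negative log2 fold change (median -0.19). Of the 19, 11 were highest in Female replicate 1 and 0 in Male replicate 2. The mean centred log2 level of the list was -0.18, 0.12, -0.28 and -0.03 in Male replicates 1 to 4, and 0.86, -0.29, -0.10 and -0.11 in Female replicates 1 to 4. Their summed level was 417 to 600 CPM in males and 514 to 625 CPM in females, most of it from Gata4, Dlk1 and Gata6, which the heart expresses too. Gata4 had 145 to 258 CPM in males and 203 to 281 CPM in females, Gata6 108 to 122 and 95.1 to 124 CPM, Dlk1 61.5 to 103 and 80.9 to 119 CPM, and Tbx3 31.5 to 43.1 and 33.6 to 40.9 CPM. Hnf4g had no count in any library. Of the regulators named after their values were seen, Foxa3, a forkhead factor of endoderm, had 0.0711, 1.13, 0.0459 and 0.372 CPM in Male replicates 1 to 4, and 2.13, 0.239, 0.348 and 0.117 CPM in Female replicates 1 to 4. Onecut1, a regulator of the hepatoblast, had 0, 0.176, 0 and 0.0338 CPM in the males and 0.377, 0, 0 and 0 CPM in the females. Foxa2 had 0.178 to 0.352 CPM in males, and 2.42 CPM in Female replicate 1 with 0.179 to 0.313 CPM in the other females. Hhex, needed for the liver bud and also expressed in endocardium, had 8.50, 6.71, 8.63 and 8.55 CPM in the males and 14.8, 9.18, 7.56 and 9.41 CPM in the females, and was lowest in Male replicate 2. Prox1, also a gene of heart muscle, had 40.1, 25.8, 38.7 and 37.3 CPM in the males and 37.9, 36.4, 31.8 and 42.2 CPM in the females.

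Of 16 genes of visceral endoderm and yolk sac, 12 were tested, 2 with a positive and 10 with a negative log2 fold change (median -0.41), and 12 of the 16 were highest in Female replicate 1. They summed to 85.2, 91.7, 75.3 and 78.5 CPM in Male replicates 1 to 4, and 131, 80.1, 95.2 and 82.4 CPM in Female replicates 1 to 4. Female replicate 1 was thus the one library that stood apart. Of the 16 genes, 7 are also on another list, as are 6 of the 20 foregut genes, so the lists are not independent. Amn, a part of the endocytic receptor of visceral endoderm, had 6.24 to 8.50 CPM in males and 4.97 to 9.25 CPM in females, and its partner Cubn had 0.845 to 1.42 CPM in males and 1.28 to 1.94 CPM in females. Rhox5, a homeobox gene of extraembryonic tissue, had 7.0 to 7.53 CPM in males and 5.26 to 9.31 CPM in females. Amn was highest in Female replicate 3 and Cubn in Female replicate 4, so neither was among the 12 genes highest in Female replicate 1. Cldn6, among the most abundant genes of this list, had 23.2 CPM in Female replicate 1 and 14.9 CPM in Male replicate 2. It had 2.65, 7.81 and 2.99 CPM in Female replicates 2, 3 and 4, and its levels in all males are given below with the foregut genes. Cubn, Rhox5 and Cldn6 were named after their values were seen.

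Male replicate 4 differed from the other high libraries in the markers of foregut and pharyngeal epithelium. All 20 genes of that list were tested, 2 with a positive and 18 with a negative log2 fold change (median -0.68), and 4 were highest in Male replicate 2 and 14 in Female replicate 1. The mean centred log2 level of the list was -0.77, 0.91, -0.87 and -0.64 in Male replicates 1 to 4, and 1.53, -0.49, 0.46 and -0.13 in Female replicates 1 to 4. Male replicate 4 exceeded Female replicate 3 for 4 of the 20 epithelial genes. It did so for 8 of the 10 liver and yolk sac genes, but those were chosen by their levels by library. Nothing is read from that contrast. Of the epithelial genes named after their values were seen, Epcam, an adhesion molecule, had 2.06, 10.8, 2.11 and 1.62 CPM in Male replicates 1 to 4, and 18.5, 2.55, 6.32 and 3.38 CPM in Female replicates 1 to 4. Cldn6, a tight junction protein, had 1.1, 14.9, 1.29 and 1.72 CPM in the males and 23.2, 2.65, 7.81 and 2.99 CPM in the females. Shh, the signal of foregut endoderm, had 0, 2.31, 0.367 and 0.203 CPM in the males and 5.06, 0.359, 1.19 and 0.508 CPM in the females. In each of the 3, Male replicate 4 was at or near the level of the low males. Krt8, Krt18 and Krt19, keratins of simple epithelia, and Sox9 were expressed in every library. Krt8 had 148 to 268 CPM in males and 152 to 246 CPM in females, Krt18 80.03 to 169 and 85.6 to 151 CPM, Krt19 91.5 to 116 and 84.7 to 134 CPM, and Sox9 38.4 to 62 and 38.0 to 45.0 CPM.

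Lists of the other cell types spanned a smaller range of mean centred log2 level over the libraries than the 10 genes. Because the 10 genes were chosen by their levels by library, nothing is read from that contrast. The 15 genes of septum transversum and proepicardium summed to 426 to 520 CPM in males and 441 to 482 CPM in females, with 9 of 14 tested genes positive and a median log2 fold change of 0.06. The cardiomyocyte list had 15 of 17 positive and a median of 0.23. The 15 genes of endocardium and endothelium summed to 1003 to 1267 CPM in males and 1065 to 1283 CPM in females, with 7 positive and a median of -0.00349. The 13 genes of primitive erythroid cells summed to 6355 to 10344 CPM in males and 4724 to 12419 CPM in females, with 9 positive and a median of 0.08. Erythroid genes had their highest sums in Male replicate 3 and Female replicate 3, which were low for the 10 genes. Sums of the liver bud, yolk sac and foregut markers are those given above, and their part in the levels of the 10 genes was not tested.

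Profiles were compared on centred log2(CPM + 0.1) over the 8 libraries, with library totals scaled by the TMM factors of edgeR. Among all other genes tested, the 12 closest to the mean profile of the 10 genes were sought by the root mean square distance. They were 5430419D17Rik, Foxa3, Habp2, Gm45120, Hoxb1, Onecut2, Kdf1, Dennd1c, Gm24959, Gm38115, Gm12917 and Gm25517, with distances of 0.567 to 0.745. The nearest, 5430419D17Rik, had 0.427, 1.96, 0.597 and 0.913 CPM in Male replicates 1 to 4, and 2.66, 0.0996, 0.0995 and 0.176 CPM in Female replicates 1 to 4. Habp2, a serine protease of plasma, had 0.498, 1.91, 0.551 and 1.01 CPM in the males and 2.64, 0.618, 0.796 and 0.430 CPM in the females. Onecut2, a regulator of the hepatoblast, had 1.74, 4.27, 0.872 and 2.13 CPM in the males and 4.68, 1.18, 1.29 and 0.724 CPM in the females. These 3 genes had the same 3 leading libraries as Afp, which their choice by profile made likely. Hoxb1, a homeobox gene of the hindbrain and of foregut endoderm, had 0.818, 8.15, 1.52 and 1.28 CPM in the males and 10.8, 1.51, 1.99 and 0.665 CPM in the females. Hoxb1 was thus high in Male replicate 2 and Female replicate 1 but not in Male replicate 4. With Pearson correlation as the measure, 1 of the 12 genes was shared, so the list depends on the measure.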

How the data were processed

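Hearts of C57BL/6 mouse embryos at embryonic day 9.5 gave 4 male and 4 female libraries, made from Trizol RNA with an Illumina TruSeq RNA kit, per the labels' protocols. The deposited counts are raw whole-number counts per gene, identical in the series table and in the table of each library over all 394520 cells. Per the submitters' processing notes, the tools were Trimmomatic 0.36, STAR 2.5.2b, featureCounts and Subread 1.5.2, on GRCm38 (mm10). The sources used here give no annotation release, strand setting or rule for multi-mapped reads, so a gene and an antisense or near-identical gene may share reads. A second deposited table holds a normalized signal: as tested on the values, the authors scaled the counts of each library by 1 factor and list 16460 genes, 9 of the 10 members among them. It served as an alternative only. Of 49315 gene identifiers, 48970 had a symbol.

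The members and all gene lists were chosen with earlier results of these data known. CPM is the count scaled to a library total of 1000000, TPM also divides by the exon length in the count tables, and log2 levels use a pseudocount of 0.1 CPM. Male minus female was tested over all genes by the 2-sided quasi-likelihood test of edgeR 4.0.16 (R 4.3.3; all 8 libraries, no covariate, robust fit, TMM scaling, filterByExpr at a minimum count of 10), with Benjamini-Hochberg adjustment and a threshold of 0.05. The mean chi-square per gene between replicates, 7.93 to 192 over genes with at least 20 counts in the pair, was above sampling noise for each pair, so each library was counted once. Intervals of shares are Wilson intervals at 95%. The SE of a log2 fold change is its absolute value divided by the square root of the F statistic of the edgeR test. Totals of 20105913 to 51134291 counts limit the precision for genes with few counts. The fit was tested on simulated data. Alternatives were DESeq2 1.42.0, limma-voom of limma 3.58.1, other scaling factors, filters, pseudocounts and values, the replicate number as a block, and leaving out libraries.

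The genes named were the 10 members, of each list described its called genes and up to 4 tested genes with the highest mean CPM, the 12 genes closest to the member profile, and Xist with 4 Y-linked genes as a check of sex. Of the lists for cardiomyocytes, endocardium, erythroid cells and septum transversum only sums and counts are given, and 1 entry of the erythroid list had no gene identifier. Some genes that the rule takes are not reported here. Other genes are marked as named after their values were seen. Promoter sequences are from RefSeq on GRCm38.p6.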

Additional observations from a re-analysis of the deposited data

Results flagged for a closer look

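For 19 genes named for their abundance in the lists, the male and the female libraries were examined for 1 library far from the other 3, by Dixon's ratio of the gap to the range at its 95% critical value and with at least 10 counts in the highest library. The 10 members, the genes with the closest profiles and the genes named after their values were seen were not examined in this way, because their levels by library had been used to choose them. Of 38 such groups, 1 stood out, while chance flags about 1 in 20. Apom, the apolipoprotein of high-density lipoprotein, was highest in Female replicate 1 with 5.19 CPM, against 0.821 to 1.49 CPM in the other females.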

How the results depend on the processing

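The number of genes called between the sexes was 6 and ranged from 5 to 9 over 18 alternatives, from 6 to 7 when 1 library was left out. No member tested in a fit was called in it. Most directions of the members were not stable. Without Female replicate 1 and Male replicate 2 together, the median member log2 fold change was 1.44, against -0.41 with all libraries, and leaving out 1 library moved it between -0.96 and 2.12, the highest without Female replicate 1. It was 0.49 in limma-voom and 0.42 with the replicate block. In both, Alb, Hnf4a and Fgb, which lay under the filter, entered with their values from the unfiltered edgeR fit without a block. Signs opposite to those of all 8 libraries in edgeR were found in limma-voom for Afp (2.37), Ttr (0.58) and Apob (1.54), with the replicate block for Afp (3.41), Ttr (0.93) and Apob (0.58), without Female replicate 1 and Male replicate 2 for Afp (4.83), Ttr (1.38) and Apob (1.51), and, in a fit added after seeing the data, without these and Male replicate 4 for Ttr (0.68) and Apob (1.17). With 1 library left out, the value of Afp ranged from -0.98 to 5.55 (0.17 without Male replicate 1, 0.09 without Male replicate 3), of Ttr from -2.65 to 2.61, of Apoa1 from -3.00 to 1.03, of Apob from -1.13 to 1.67, of Rbp4 from -1.85 to 0.48 and of Apoa2 from -0.15 (without Male replicate 2) to 0.66. The highest value came without Female replicate 1 in each. Trf kept its sign in all 17 alternatives. The cause was not tested beyond the left-out libraries themselves. Replicate numbers did not pair the samples (correlations of deviations -0.42, -0.08, -0.33 and -0.01 for numbers 1 to 4), and the replicate block called 5 genes.

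The median member difference depended on the pseudocount: for Male replicate 2 it was 0.899 with 1 CPM, against 2.36 with 0.1 CPM. For Female replicate 1 it was 1.77 with 1 CPM and 4.45 with 0.01 CPM, against 3.24. The other alternatives gave 1.96 to 2.91 for Male replicate 2, and 3.11 to 3.98 for Female replicate 1. Of the 12 closest genes, 1 was shared with Pearson correlation, 11 with library size alone and 7 with no filter. Depth limits Alb, Fgb and Hnf4a, which had 0 to 6 counts in the low libraries.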
